A study of Mus musculus with 2 samples.

Results

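The 32 genes described here belong to the p53 pathway: p53 itself (Trp53), its inhibitors Mdm2 and Mdm4, and 29 genes known as p53 targets. They were chosen by symbol, with earlier results of these data known, and all 32 were found among the 36980 gene symbols of the expression table. For each gene the listed transcript with the highest mean level stood for the gene. RNA was sequenced from cultured mouse pro-B cells, the B cell precursors of the bone marrow, with 1 library of the genotype Setdb1 C/C and 1 of the genotype Setdb1 Δ/Δ. The enzyme SETDB1 methylates lysine 9 of histone H3, and Δ/Δ denotes the deleted gene. Both cultures also carried a bcl2 transgene, an inhibitor of apoptosis, so neither is a culture of unmodified cells. Sorted cells of both genotypes had grown with interleukin 7 at 5 ng/µl until day 4. The sources used here do not give the number, age, sex or strain of the animals, the promoter of the transgene, the exons removed or what drove the deletion.

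The protein p53 is a transcription factor that accumulates when DNA is broken or when growth signals are abnormal. MDM2 marks it for destruction, MDM4 blocks its activating domain, and both limit its output. Its targets halt the cell cycle, start apoptosis, repair DNA and damp growth signalling, and several of them, Mdm2 included, feed back on p53. Pro-B cells cut and rejoin their own immunoglobulin genes while they divide, and p53 is known to guard B cell precursors against breaks that are not repaired.

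Levels are given in RPKM, that is, reads divided by transcript length and by library depth. The depth, recovered from the RPKM values in units of 1e6 reads, was 170.6 for C/C and 193.2 for Δ/Δ. Where a pair of levels is given, the C/C level comes first. Differences are given as log2((Δ/Δ + 0.5) / (C/C + 0.5)), which understates the change of genes near 0, and plain ratios stand beside them. A gene counts as measured if either library reached 1 RPKM, and it is called higher or lower when the log2 ratio is at least 1 or at most -1. Each genotype has 1 library, so differences could not be checked against replicates and were not tested. Intervals are exact 95% intervals of a ratio of Poisson rates, with 2 reads taken as 1 fragment, and they cover counting error only. Setdb1 itself measured 17.0 (C/C) and 12.6 RPKM (Δ/Δ) over its whole transcript, which does not check a deletion of unknown exons. All 14 B lineage markers examined were measured in both libraries, with sums of 5393 and 4437 RPKM and a median log2 ratio of -0.53. Of these, 4 were lower (Cd79a, Cd79b, Pax5 and Rag1) and 1 was higher (Vpreb2). The libraries also differed in ways other than Setdb1. Of 10 measured myeloid markers 8 were higher in Δ/Δ, and the 14 on the list summed to 36.5 (C/C) and 270 RPKM (Δ/Δ), with Mpo and Elane listed at 0 in C/C. Dendritic markers were higher in 5 of 5 measured (7 listed, sums of 45.4 and 109 RPKM), and erythroid and megakaryocyte markers in 5 of 6 measured (9 listed, 7.55 and 73.2 RPKM). Of 10 measured markers of later B cells 9 were lower, and the 11 found in the table summed to 4826 and 1475 RPKM. Xist measured 0.0940 (C/C) and 23.7 RPKM (Δ/Δ), and the Y-linked gene Eif2s3y measured 22.3 RPKM in C/C and was listed at 0 in Δ/Δ. Genotype and sex therefore cannot be told apart for any gene below.

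The p53 pathway genes leaned towards lower levels in the Δ/Δ library, while p53 itself and its inhibitors stayed within the size rule. Psrc1, Zmat3, Phlda3, Rrm2b, Btg2 and Cdkn1a were lower, and none was higher. These are 6 of the 28 measured genes of the pathway, or 21.4%, whereas 6.66% of all 12556 measured genes were lower and 6.28% were higher. The median log2 ratio of the 28 was -0.35, and that of all measured genes was -0.09. Below 0 lay 21 of the 28 (75.0%), beside 57.7% of all measured genes. A further 5 of the 28 lay between -0.5 and -1, or 17.9%, beside 13.7% of all genes. The lean was not particular to this pathway among the lists described below. Of measured close relatives 4 of 18 were lower, of genes linked to FOXO transcription factors 9 of 20, and of other p53 targets 2 of 23. In bulk RNA, fewer cells of a type and less RNA per cell cannot be told apart. Markers of the B lineage (4 of 14 lower, median -0.53) and of myeloid, dendritic, erythroid and later B cells moved in the same comparison, with the sums given above, and their part in these values was not tested.

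**Figure D1:**
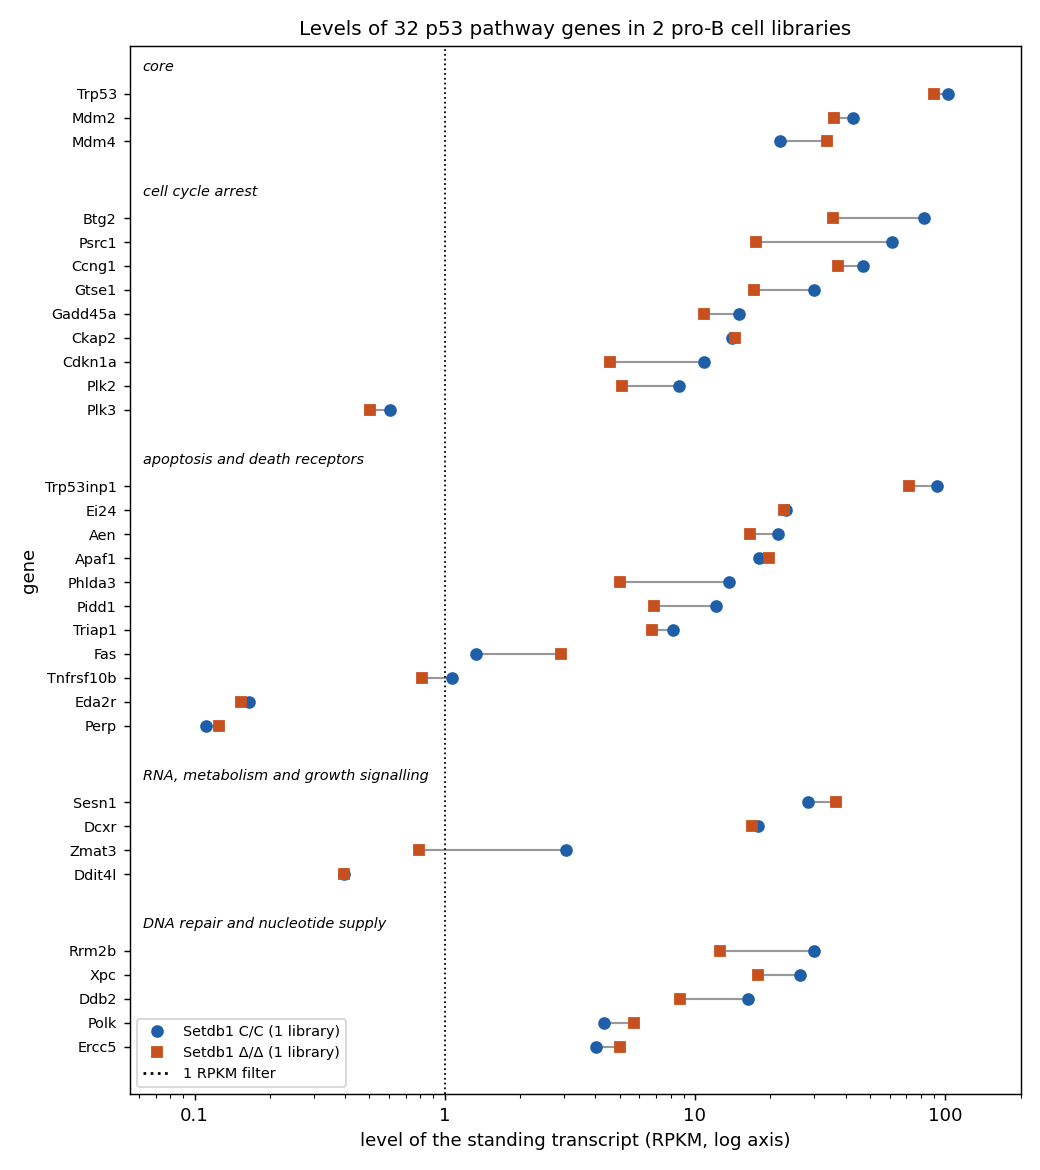
Level of each of the 32 genes (RPKM, log axis) in the C/C library (circles) and the Δ/Δ library (squares), grouped by role, with a dotted line at the filter of 1 RPKM. Most squares lie left of their circles, with the widest gaps for Zmat3 (3.05 and 0.788 RPKM) and Psrc1 (61.3 and 17.5 RPKM), while Fas (1.33 and 2.92 RPKM) and Mdm4 (21.9 and 33.8 RPKM) lie the other way.

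The core of the pathway was present in both libraries. Trp53 (GRCm38 chromosome 11, 69580359 to 69591873, plus strand) measured 103 (C/C) and 90.3 RPKM (Δ/Δ). This ratio of 0.877 (interval 0.858 to 0.897) came from 31117 and 30908 reads, and Trp53 had the highest level of the 32 genes in each library. Its 6 listed transcripts gave ratios from 0.8524 to 0.8997. Mdm2 (chromosome 10, 117688875 to 117710758, minus strand), the ubiquitin ligase of p53 and itself a p53 target, measured 43.0 and 35.9 RPKM. The transcript standing for it is a short non-coding one. Its protein-coding transcript ENSMUST00000020408 measured 27.96 and 24.88 RPKM, a ratio of 0.890. All 9 listed Mdm2 transcripts were below a ratio of 1, from 0.677 to 0.925. Mdm4 (chromosome 1, 132959484 to 133030561, minus strand), the non-catalytic relative of Mdm2, went the other way, with 21.9 (C/C) and 33.8 RPKM (Δ/Δ). Its ratio of 1.55 (interval 1.48 to 1.61) was short of the size rule. Of the core genes Mdm4 alone had its higher level in Δ/Δ. A pseudogene of it, Mdm4-ps, measured 1.12 and 1.73 RPKM, and reads of near-identical copies can be placed on either.

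Genes that halt or steer the cell cycle held 3 of the 6 lower genes. Of 9 such genes 8 were measured, 3 were lower and none was higher, and their median log2 ratio was -0.74. Among all measured genes 6.66% were lower and 6.28% were higher, with a median of -0.09. Cdkn1a (chromosome 17, 29090976 to 29100727, plus strand) encodes p21, the inhibitor of cyclin-dependent kinases through which p53 stops the cycle. It measured 10.9 (C/C) and 4.57 RPKM (Δ/Δ), from 3563 and 1691 reads. The ratio was 0.419 (interval 0.385 to 0.455), and the log2 ratio of -1.17 lay at percentile 5.2 of all measured genes. Its other listed transcripts gave ratios of 0.369 and 0.371, so the transcripts of Cdkn1a moved alike. A gene model on the opposite strand, AC167363.2, overlaps its exons by up to 261 bases, and the library kit does not mark strand.

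The promoters were searched for the p53 consensus site, since some of these genes carry one close to their start. The consensus decamer is made of 3 purines, a C, 2 bases that are A or T, a G and 3 pyrimidines, and reads the same on both strands. A full site here means 2 decamers, joined or 1 base apart, with the C and G of each kept and at most 2 mismatches in all. RefSeq windows of the 250 bases before a start (GRCm38.p6) were found for 25 of the 32 genes, with 32 windows in all. Full sites lay in windows of Cdkn1a, Ccng1 and Ckap2, that is in 3 of the 32 windows, beside 0.551% of the 32851 windows of all genes. No window was used for Rrm2b, Zmat3, Perp, Tnfrsf10b, Ddb2, Trp53inp1 and Xpc. The 3 sites are shown because the genes that carry them had different ratios. Capitals mark the site, and 5 bases flank it on either side. The Cdkn1a site (chr17:29090923-29090952, plus strand) starts 51 bases before the upstream one of the gene's 2 RefSeq starts and has 1 mismatch. The Ccng1 site (chr11:40755457-40755486, minus strand) starts 195 bases before its start and has 1 mismatch, and the Ckap2 site (chr8:22185998-22186027, minus strand) starts 203 bases before its start and has 2. None of the 3 sites overlaps an annotated transcript.
Cdkn1a: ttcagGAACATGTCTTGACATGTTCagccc
Ccng1: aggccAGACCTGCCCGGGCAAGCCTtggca
Ckap2: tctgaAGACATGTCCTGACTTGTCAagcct
For Cdkn1a the level in Δ/Δ over that in C/C was 0.419, for Ccng1 0.797 and for Ckap2 1.02. Single decamers without a mismatch lay in windows of 11 of the 25 genes (11 of 32 windows, the 3 full sites included, beside 7.13% of all windows), among them Trp53, Mdm2, Sesn1, Gadd45a and Aen. Of the 6 lower genes, Btg2, Cdkn1a, Phlda3 and Psrc1 had a window, and of these Cdkn1a alone held a decamer. The motif TTTGAA, known from cell cycle genes, was searched on both strands and lay in windows of Aen, Ckap2, Ercc5 and Fas (4 of 32 windows, beside 16.0% of all windows). A match is a run of letters and was not tested for binding here. Bases further than 250 before a start, or after it, were not searched, so a gene without a match may hold a site there.

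Btg2 (chromosome 1, 134075170 to 134079120, minus strand) encodes an antiproliferative protein that speeds the removal of messenger RNA tails. It measured 82.0 (C/C) and 35.8 RPKM (Δ/Δ). With 38368 and 18967 reads it had the narrowest interval of the lower genes, a ratio of 0.436 (0.426 to 0.447). Its relative Btg1 was also lower, at 38.8 and 15.2 RPKM, whereas Btg3 measured 7.20 and 9.78 RPKM. Psrc1 (chromosome 3, 108383839 to 108388231, plus strand) encodes a microtubule-binding protein of the mitotic spindle. It measured 61.3 (C/C) and 17.5 RPKM (Δ/Δ), a ratio of 0.286 (interval 0.265 to 0.308), and its log2 ratio of -1.78 was the lowest of the 28. The standing transcript is non-coding, but all 10 listed Psrc1 transcripts were lower by the size rule, with ratios from 0.286 to 0.381. The protein-coding transcript ENSMUST00000090561 measured 56.7 and 18.4 RPKM.

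The remaining cell cycle genes did not pass the size rule. Gtse1, a microtubule-binding protein of G2 phase that also restrains p53, measured 30.0 and 17.2 RPKM (log2 ratio -0.78). Plk2, a polo-like kinase induced by p53, measured 8.60 and 5.12 RPKM (-0.70). Both lay on the lower side, at percentiles 10.6 and 12.8 of all measured genes. Gadd45a, a stress protein that binds the replication clamp, measured 15.0 (C/C) and 10.9 RPKM (Δ/Δ). Its exons overlap by up to 317 bases those of E230016M11Rik on the other strand, which measured 8.43 and 5.79 RPKM. Ccng1, cyclin G1, measured 46.9 and 37.4 RPKM. Ckap2, a spindle protein, was nearly level at 14.1 and 14.5 RPKM, and its interval of 0.976 to 1.08 holds 1. Plk3, another polo-like kinase, was below the filter at 0.605 and 0.505 RPKM. The 3 spindle proteins Psrc1, Gtse1 and Ckap2 therefore had ratios of 0.286, 0.574 and 1.02. For comparison, a list of 28 mitotic genes that p53 and p21 are known to repress had a median of -0.42. The median of all measured genes was -0.09, and 6.66% of them were lower. The list had 1 lower gene, Cenpf (21.6 and 9.63 RPKM). Next by size came Nusap1, a spindle protein gene, at 159 and 84.5 RPKM and the kinase gene Aurkb at 123 and 66.5 RPKM, both short of the rule.

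**Figure D2:**
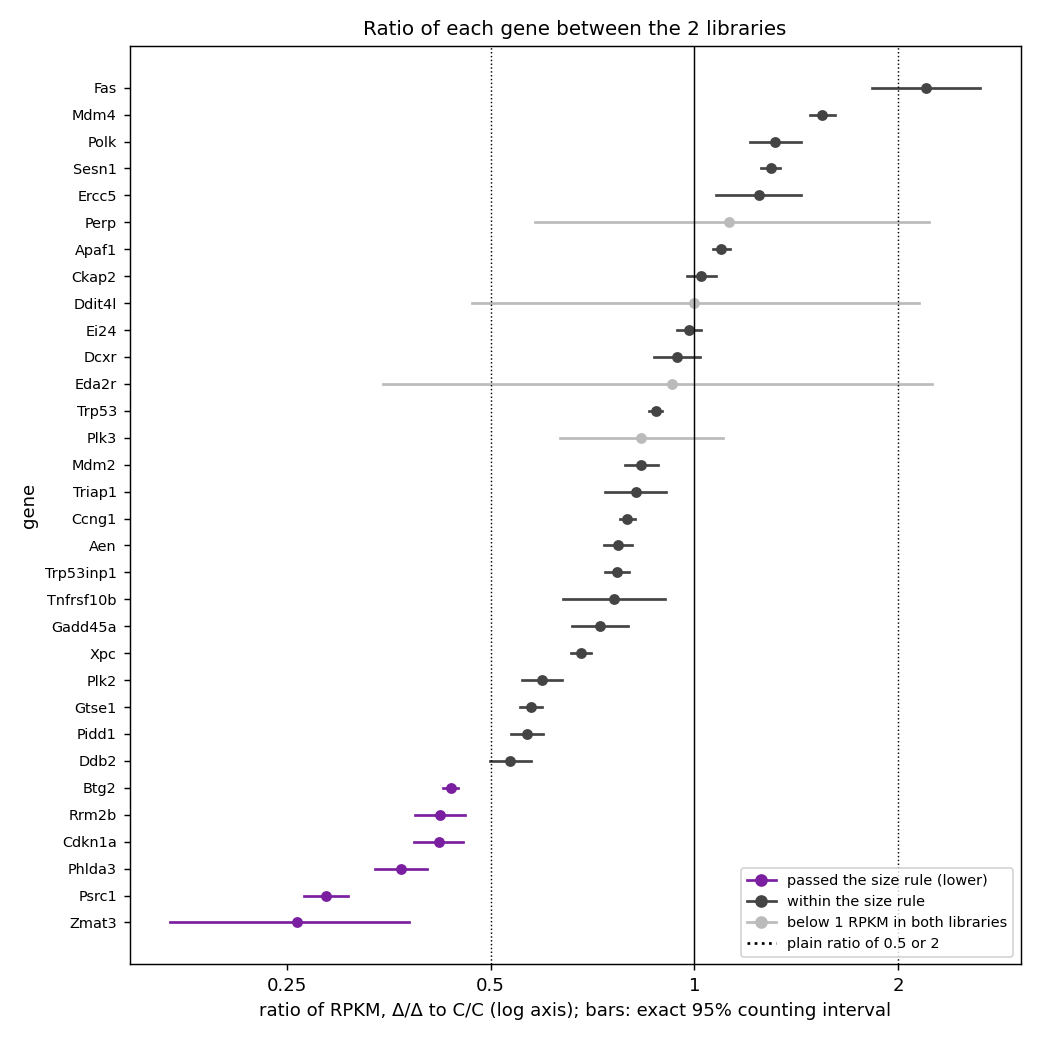
Ratio of RPKM in Δ/Δ to C/C (log axis) for each of the 32 genes, ordered by ratio, with exact 95% counting intervals as bars and dotted lines at plain ratios of 0.5 and 2. The 6 lower genes lie from 0.258 (Zmat3) to 0.436 (Btg2), and the bars of the 4 genes below 1 RPKM in both libraries are wide and hold 1.

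Of 11 genes of apoptosis and death receptors 9 were measured, 1 was lower and none was higher, with a median of -0.27. Among all measured genes 6.66% were lower and 6.28% were higher, with a median of -0.09. Phlda3 (chromosome 1, 135766119 to 135769136, plus strand) encodes a small protein that keeps the survival kinase AKT off the membrane. It measured 13.7 (C/C) and 5.03 RPKM (Δ/Δ), a ratio of 0.369 (interval 0.337 to 0.403), and its second transcript gave 0.386. Pidd1, which assembles the platform that activates caspase 2, measured 12.1 and 6.86 RPKM (log2 ratio -0.78), and its 9 transcripts gave ratios from 0.520 to 0.655. The other components of that platform measured 8.33 and 5.64 RPKM (Cradd) and 57.5 and 46.2 RPKM (Casp2). Apaf1, the scaffold of the apoptosome, measured 18.1 and 19.9 RPKM, and its 8 listed transcripts gave ratios on either side of 1, from 0.892 to 1.10. Its partners were spread to either side, with Casp9 at 7.08 and 5.03 RPKM and the cytochrome c gene Cycs at 59.3 and 112 RPKM, within the rule at a log2 ratio of 0.92.

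The death receptor gene Fas (chromosome 19, 34290666 to 34327772, plus strand) stood at the upper end of the pathway. It measured 1.33 (C/C) and 2.92 RPKM (Δ/Δ), from 336 and 836 reads. The plain ratio was 2.20 (interval 1.83 to 2.64), but the log2 ratio with the added 0.5 was 0.90, short of the rule. With 0.1 RPKM added in place of 0.5, or with transcripts summed, Fas was higher by the rule. Its second transcript gave a ratio of 2.49. The genes of the signalling complex below Fas had their higher level in Δ/Δ for Casp8 (26.5 and 39.2 RPKM) and its modulator Cflar (12.9 and 19.9 RPKM), and were level for the adaptor Fadd (2.05 and 2.04 RPKM). None of these passed the rule, and the ligand gene Fasl was below 1 RPKM in both libraries. Tnfrsf10b, the receptor for TRAIL, measured 1.07 and 0.811 RPKM. Fas is also expressed by myeloid cells, whose markers were higher in the same library (8 of 10 measured), and their part in its level was not tested.

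The other apoptosis genes differed little or were hardly expressed. Trp53inp1, a stress protein of autophagy and cell death, measured 92.9 and 71.4 RPKM on a short non-coding transcript. Its protein-coding transcript measured 45.3 and 43.6 RPKM, a ratio of 0.964, so its transcripts did not move alike. Aen, a nuclease of apoptotic cells, measured 21.5 and 16.6 RPKM. Triap1, an inhibitor of the apoptosome, measured 8.21 and 6.72 RPKM. Ei24, a membrane protein of the endoplasmic reticulum, measured 23.2 and 22.8 RPKM, and its interval of 0.943 to 1.02 holds 1. Perp, a membrane protein of epithelial junctions, was at 0.111 and 0.125 RPKM and the receptor gene Eda2r at 0.165 and 0.153 RPKM. These came from 37 and 47 reads and from 22 and 23 reads, and the intervals of 0.583 to 2.22 (Perp) and 0.347 to 2.25 (Eda2r) hold 1.

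Among RNA, metabolism and growth signalling genes, Zmat3 stood apart. Zmat3 (chromosome 3, 32334792 to 32366014, minus strand) encodes an RNA-binding zinc finger protein. Its standing transcript measured 3.05 (C/C) and 0.788 RPKM (Δ/Δ), a ratio of 0.258 (interval 0.168 to 0.379), but it is short and held only 229 and 67 reads. The longest transcript held 3037 and 1038 reads and measured 2.28 and 0.689 RPKM. Its ratio of 0.302 (interval 0.273 to 0.334) was 3.31-fold lower, by a narrower interval. Sesn1, a sestrin that restrains the growth kinase complex mTORC1, had its higher level in Δ/Δ at 28.2 and 36.5 RPKM, within the rule. Of its relatives, Sesn2 measured 7.08 and 6.16 RPKM and Sesn3 12.1 and 12.8 RPKM. Dcxr, a sugar reductase, measured 17.9 and 16.9 RPKM. Ddit4l, another inhibitor of mTORC1, was at 0.394 RPKM in both libraries on its short standing transcript, from 30 and 34 reads. The longest Ddit4l transcript held 85 and 146 reads and measured 0.183 and 0.278 RPKM, a ratio of 1.52 (interval 1.04 to 2.3). The relative Ddit4 measured 30.26 and 18.05 RPKM.

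All 5 genes of DNA repair and nucleotide supply were measured, and 1 of them was lower, beside 6.66% of all measured genes. Rrm2b (chromosome 15, 37923952 to 37961318, minus strand) encodes the p53-induced small subunit of ribonucleotide reductase, which supplies nucleotides for repair. It measured 29.8 (C/C) and 12.6 RPKM (Δ/Δ), a ratio of 0.421 (interval 0.386 to 0.458). The standing transcript is short and subject to decay. Of the 8 listed Rrm2b transcripts 5 were lower by the rule, with ratios from 0.373 to 0.576 over all 8. The longest, ENSMUST00000022901, measured 10.5 and 5.23 RPKM, a ratio of 0.497 whose log2 ratio of -0.94 was short of the rule. Of the other subunits, Rrm2, which serves replication, measured 121 and 71.1 RPKM, and Rrm1 96.6 and 79.6 RPKM. An antisense gene, Gm49085, overlaps Rrm2b by up to 379 bases.

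The damage recognition genes lay on the lower side as well, within the rule. Ddb2, which finds ultraviolet lesions in chromatin, measured 16.3 (C/C) and 8.71 RPKM (Δ/Δ) (log2 ratio -0.87, percentile 8.6). It overlaps Acp2 on the opposite strand by up to 441 bases, and Acp2 measured only 1.90 and 1.91 RPKM. Xpc, the other recognition factor of nucleotide excision repair, measured 26.3 and 17.9 RPKM (-0.54). The remaining repair genes had their higher level in Δ/Δ. Polk, a polymerase that copies past lesions, measured 4.34 and 5.71 RPKM, and the nuclease gene Ercc5 measured 4.02 and 5.01 RPKM. For Ercc5 the protein-coding transcript gave 4.11 and 4.34 RPKM, a ratio of 1.06. Of all measured genes 6.66% were lower and 6.28% were higher. A list of 30 other genes of excision repair and lesion bypass had none higher and none lower and a median of -0.04. Its largest differences were Rev1 (13.4 and 7.74 RPKM) and Polh (32.6 and 20.6 RPKM), polymerases of lesion bypass.

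**Figure D3:**
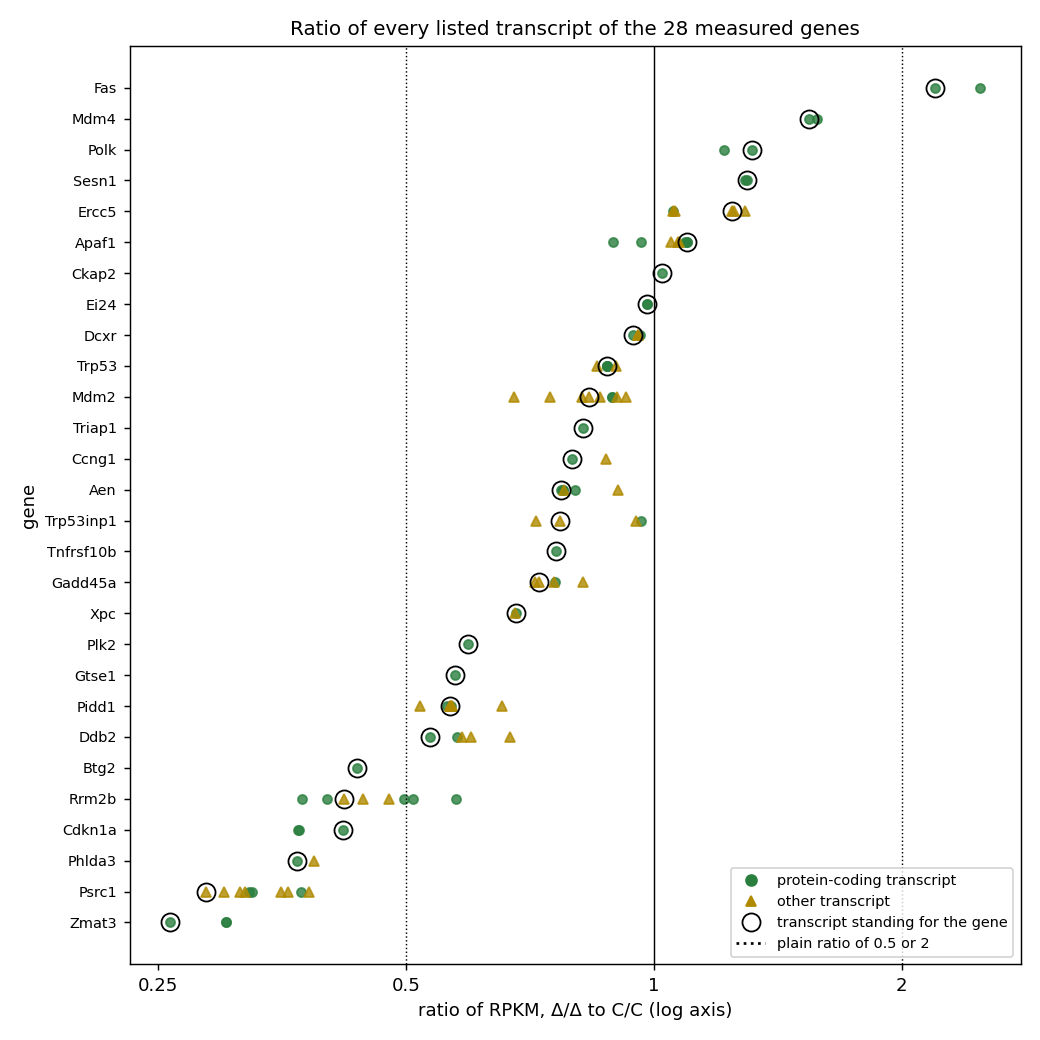
Ratio of RPKM in Δ/Δ to C/C (log axis) for every listed transcript of the 28 measured genes, with circles for protein-coding and triangles for other transcripts and a ring around the transcript standing for the gene. All transcripts of the 6 lower genes lie left of 1, and those of Rrm2b run from 0.373 to 0.576.

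The lower levels were shared by the transcripts of a gene. The 32 genes had 119 listed transcripts, from 1 to 10 per gene, and transcripts of a gene share exons and reads, so they are not independent. Of 27 transcripts of the 6 lower genes 24 passed the size rule, and the 3 others belong to Rrm2b. Of 81 transcripts of the other measured genes none passed it in either direction. For 8 of the 32 genes the standing transcript is not protein-coding. With the protein-coding transcript of highest level in its place, the same 6 genes were lower and none was higher. That check was chosen after the values were seen.

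The 32 genes lie on 17 chromosomes, and no neighbour of a lower gene was itself lower by the rule. The nearest measured protein-coding gene on either side of each of the 6 lower genes was taken, 12 genes in all. None of the 12 passed the size rule, beside 4.94% lower and 5.53% higher among all measured protein-coding genes, and 9 of the 12 lay below 0, beside 57% of those genes. Their log2 ratios ran from -0.82 to 0.75 with a median of -0.13. Psrc1 lies 2.62 kb from Celsr2 (1.08 and 0.393 RPKM) and 22.3 kb from Sort1 (2.42 and 1.28 RPKM), which were both short of the rule. Next to genes within the rule there were larger differences, such as Cpm beside Mdm2 (16.8 and 1.93 RPKM) and Isg20 beside Aen (4.09 and 24.9 RPKM). These neighbours were named for their position after the values were seen.

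Further p53 targets outside the 32 genes gave a mixed picture. Of 31 on that list 23 were measured, and their median was -0.19; 2 passed the rule as lower and 1 as higher. The lower ones were Bbc3, the death-promoting protein PUMA (45.3 and 10.7 RPKM), and Sfn, the cell cycle adaptor 14-3-3σ (6.50 and 1.35 RPKM). The higher one was the cytokine gene Lif (0.225 and 1.27 RPKM). Bax, the pore-forming death protein, measured 150 and 78.7 RPKM and the detoxifying enzyme gene Ephx1 48.9 and 26.7 RPKM, both within the rule. Tob1, an antiproliferative relative of Btg2, measured 2.39 and 1.16 RPKM. The share of lower genes on this list, 2 of 23, is near the 6.66% of all measured genes. Below 0 lay 13 of the 23, beside 57.7% of all measured genes.

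Genes that sense damage and regulate p53 had a median close to that of all genes, while single genes differed in either direction. Of 40 listed 38 were measured, 3 were lower and none was higher, with a median of -0.12 beside -0.09 for all measured genes. The share of lower genes on this list, 3 of 38, is near the 6.66% of all measured genes. The sensor kinase genes Atm (10.9 and 11.3 RPKM) and Chek2 (10.7 and 8.52 RPKM) were within the rule. The lower ones were Smyd2, a methyltransferase that represses p53 (12.8 and 5.55 RPKM), Bcl6, a repressor of Trp53 transcription in germinal centres (2.88 and 1.15 RPKM), and Cdkn2a (3.58 and 1.46 RPKM). Cdkn2a encodes both ARF, the inhibitor of MDM2, and p16. Its value is that of 1 listed transcript, which was not assigned to either protein here. The p53 ubiquitin ligase gene Cop1 measured 12.1 and 20.5 RPKM and Dyrk2, a kinase of p53, 21.1 and 11.9 RPKM, both within the rule. Ppp1r13b, on the same list, measured 5.80 and 2.95 RPKM, also within the rule.

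Close relatives of the 32 genes, which are not all p53 targets, included 4 lower genes. Of 25 listed 18 were measured, and 14 of these were within the rule and none was higher. The median of the 18 was -0.55, and 6.66% of all measured genes were lower. The lower ones were Gadd45g (4.59 and 0.802 RPKM), Ccng2 (119 and 36.3 RPKM), Btg1 and the kinase inhibitor gene Cdkn1b (52.2 and 24.9 RPKM). Gadd45b, with 25.9 and 12.7 RPKM, missed the threshold narrowly (log2 ratio -0.998). Thus Cdkn1a and Btg2 were lower together with a relative, whereas Ccng2 and Gadd45g were lower while Ccng1 and Gadd45a were within the rule. The p53 relatives Trp63 and Trp73 were listed at 0 or below 1 RPKM in both libraries. Of 18 measured partners of the 32 genes, such as cyclins and caspases, none passed the rule (median -0.26).

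**Figure D4:**
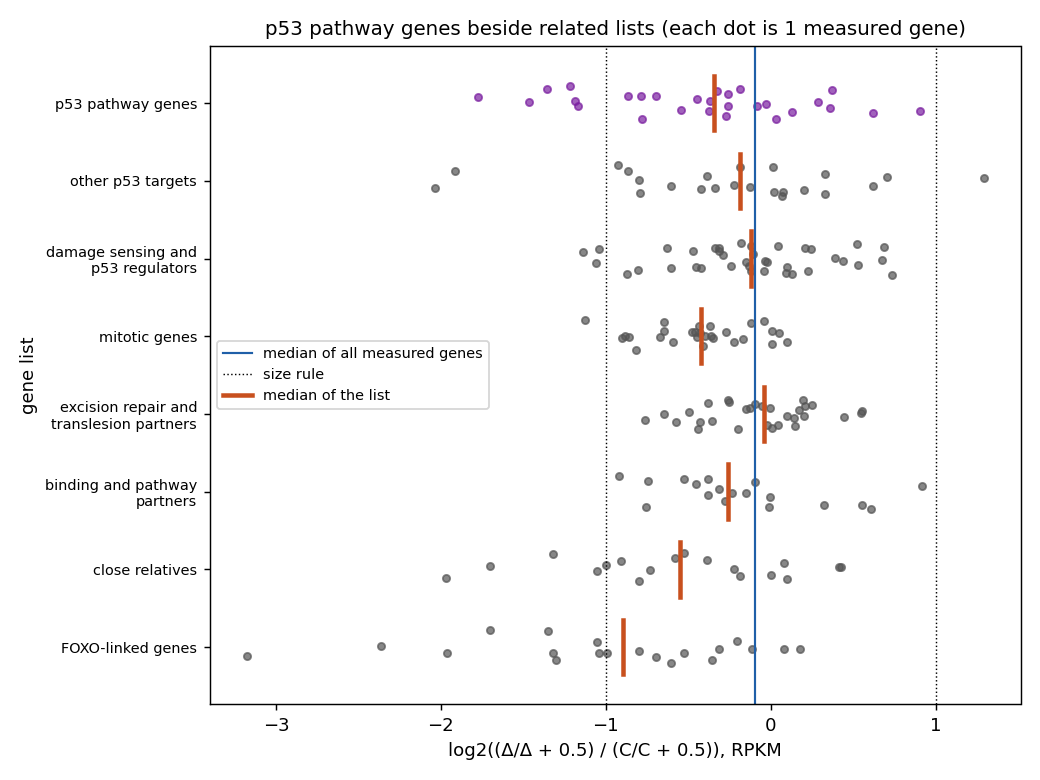
Log2 ratio of each measured gene (1 dot per gene) in the p53 pathway and in 7 related lists, with the median of each list as a thick bar, the median of all measured genes as a line and dotted lines at the size rule. The median of the p53 pathway genes lies at -0.35, that of other p53 targets at -0.19 and that of FOXO-linked genes at -0.90, beside -0.09 for all measured genes. The medians of mitotic genes (-0.42) and close relatives (-0.55) also lie below that of the pathway. Those of partners (-0.26), damage sensing genes (-0.12) and excision repair genes (-0.04) lie above it.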

How the data were processed

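The authors deposited 1 table of RPKM values, rounded to 3 decimals, for 93615 Ensembl transcripts and 2 libraries of 101 bp reads. Its column Wt was taken as C/C and its column Del as Δ/Δ, since the labels permit no other match. TopHat2 2.0.9 and bedtools are named in the submitters' processing notes. The table's build, annotation, strand setting and handling of shared reads: not given in the sources used here. Transcripts were matched to GENCODE M21 (GRCm38), which succeeded for 95.7%, and coordinates are from that annotation.

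Depth was recovered because RPKM times transcript length falls on whole reads. Low values were taken from transcripts 100 to 800 bases long, and 96.3% (C/C) or 95.6% (Δ/Δ) were whole reads to within 0.1. More transcripts had 2 reads than 1, so 2 reads were taken as 1 fragment. The search and the size rule were tested on simulated data. The genes and lists were chosen with earlier results of these data known. All 32 genes are named, with Setdb1, up to 6 genes of each further list by size of log2 ratio, and any measured partner or relative. Genes named outside this rule were chosen after their values were seen: Atm, Chek2, Foxo1, Foxo3, Xist, Eif2s3y, pseudogenes, overlapping genes, named markers and neighbours. Alternatives covered the added constant, filter, scaling, transcript choice and fold. Analysis used Python 3.11.15, pandas 2.3.3, numpy 2.4.6 and scipy 1.17.1. Some genes that the naming rule covers are not reported here.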

Additional observations from a re-analysis of the deposited data

How the results depend on the processing

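The same 6 genes were lower with 0.1 or 1 RPKM added, without the filter, with a filter on the mean, after centring, with both libraries scaled to one sum that leaves out the 20 most abundant genes, with transcripts summed and with the protein-coding transcript. At a filter of 5 RPKM Zmat3 left the set, and on the longest transcripts Rrm2b did, which left 5 genes each. A 1.5-fold rule gave 10 lower genes and 2 higher ones (Fas and Mdm4), and a 4-fold rule gave 0 in either direction. With 0.1 RPKM added, or with transcripts summed, 1 gene (Fas) was higher. Over all genes a filter of 5 RPKM left 452 higher and 510 lower, a 1.5-fold rule gave 1583 and 2101, and a 4-fold rule gave 220 and 234. The fewer genes or the other threshold account for these counts by construction. No single gene called lower changed sign. No paired analysis was possible because each genotype has 1 library, and leaving out a library was not possible for the same reason. Genes under 1 RPKM in both libraries (Perp, Eda2r, Plk3 and Ddit4l) were set aside by the filter. The counting intervals of their standing transcripts all hold 1, whereas that of the longest Ddit4l transcript (1.04 to 2.3) does not.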

Other observations

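Genes linked to FOXO transcription factors and to quiescence, several of which p53 also induces or whose relatives it induces, had low levels in Δ/Δ. All 20 on the list were measured, 9 were lower and none was higher, with a median of -0.90, beside 6.66% lower among all measured genes. Klf2, a quiescence factor of lymphocytes, measured 21.9 (C/C) and 1.98 RPKM (Δ/Δ). The migration receptor gene S1pr1 (31.9 and 5.80 RPKM) and the recombinase gene Rag1 (27.3 and 6.64 RPKM) were lower. The FOXO genes themselves were within the rule, with Foxo1 at 11.6 and 8.96 RPKM and Foxo3 at 16.6 and 13.3 RPKM. The list shares Ccng2, Cdkn1b, Btg1, Tob1 and Sesn3 with the relatives of the p53 pathway genes, of which Tob1 (2.39 and 1.16 RPKM) and Sesn3 (12.1 and 12.8 RPKM) were within the rule, and the difference between the lists was not tested. Rag1 is also on the B lineage marker list, of which 4 of 14 were lower. Markers of later B cells were lower in the same library (9 of 10 measured), and their part in these values was not tested.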
